A study of Mus musculus with 2 samples.

Results

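Genes of RNA helicases and splicing regulators were followed in single cells of the mouse hippocampus. The members were the gene symbols that begin with Ddx or Dhx and a digit, Srsf, Hnrnp, Rbm and a digit, or Sf3a or Sf3b, without the X- and Y-linked pair Ddx3x and Ddx3y. They numbered 130 of the 24130 genes in the files, namely 52 DDX and DHX helicases, 38 RBM proteins, 20 hnRNP proteins, 11 SRSF proteins and 9 subunits of SF3A and SF3B. The group was chosen by measured values, since Ddx23 and Dhx8 had low ratios between the libraries, so the ratios are given as a description with no test. The symbol pattern also takes in Rbm3os, an antisense RNA, and Rbm31y, which had no UMI in either library.

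The study has 2 hippocampal libraries, 1 per group, from C57BL/6 males labelled as 6 months of age. The control group received saline. Mice of the EMF_AuNPs group had gold nanoparticles injected into the hippocampus and spent 3 weeks between Helmholtz coils, which made an electromagnetic field. Whether the control mice were also kept between coils, and how many mice went into each library, is not given in the sources used here. Both libraries share the strain, the sex, the age, papain dissociation and the 10x protocol, which counts each captured mRNA molecule by a unique molecular identifier (UMI).

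In the control library 51091452 UMIs fell on 21583 barcodes, and in the EMF_AuNPs library 19544686 UMIs fell on 7003 barcodes, of which 38 occur in both. Cells were assigned to a type by enriched marker genes, which placed 17028 control and 5134 EMF_AuNPs cells in 1 type each. The cells of 9 types, each with at least 50 cells in each library, were compared. Levels are UMIs per 1e6 UMIs of the cell type (CPM), with exact 95% Poisson intervals, and ratios are log2 of EMF_AuNPs over control with 1 CPM added. These intervals cover counting error only: since each group is 1 library, no difference was checked against replicates and no p-value was computed. A ratio of at least 1.5-fold is called higher or lower. Fewer cells of a kind within a type and less RNA per cell cannot be told apart in summed UMIs.

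RNA helicases use ATP to unwind or remodel RNA and RNA-protein complexes. In the spliceosome, DEAD-box helicases drive early steps such as the release of U1 from the 5′ splice site, and DEAH-box helicases drive catalysis, the release of the mRNA and the disassembly of the complex. The SF3A and SF3B subunits belong to the U2 snRNP, which recognises the branch point. SR proteins (SRSF genes) bind exonic enhancers and mostly promote exon inclusion, while hnRNP proteins coat nascent transcripts and often oppose them, and many RBM proteins adjust splicing, RNA decay or translation. Brain tissue is known for extensive alternative splicing, and glial and vascular cells use much of the same core machinery.

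Promoter sequences of RefSeq (GRCm38.p6, 250 bases before to 50 bases after the start) were found for 111 of the 130 members. They are shown for 4 members on which the comparison turns, Dhx8 and Ddx21, lower in the EMF_AuNPs library, and Hnrnpk and Srsf7, higher there. Capitals mark matches, on either strand, to 5 motifs: the CCAAT box (CCAAT), an ETS motif (CCGGAAG), the NRF1 core (GCATGCGC), the GC box (GGGCGG) and the TATA box (TATAAA).
Dhx8, chr11:101732706-101733005, plus strand: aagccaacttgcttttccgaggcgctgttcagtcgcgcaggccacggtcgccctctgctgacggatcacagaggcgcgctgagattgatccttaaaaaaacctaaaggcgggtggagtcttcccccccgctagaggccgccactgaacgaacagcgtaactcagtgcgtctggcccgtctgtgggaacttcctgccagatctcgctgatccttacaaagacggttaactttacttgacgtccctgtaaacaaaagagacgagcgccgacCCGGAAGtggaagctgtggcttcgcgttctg
Ddx21, chr10:62602249-62602548, minus strand: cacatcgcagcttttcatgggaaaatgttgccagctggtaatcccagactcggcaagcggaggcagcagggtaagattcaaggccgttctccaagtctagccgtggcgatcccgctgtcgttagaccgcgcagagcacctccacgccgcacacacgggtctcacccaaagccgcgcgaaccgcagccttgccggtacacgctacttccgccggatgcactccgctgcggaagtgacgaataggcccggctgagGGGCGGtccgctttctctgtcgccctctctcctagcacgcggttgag
Hnrnpk, chr13:58402068-58402367, minus strand: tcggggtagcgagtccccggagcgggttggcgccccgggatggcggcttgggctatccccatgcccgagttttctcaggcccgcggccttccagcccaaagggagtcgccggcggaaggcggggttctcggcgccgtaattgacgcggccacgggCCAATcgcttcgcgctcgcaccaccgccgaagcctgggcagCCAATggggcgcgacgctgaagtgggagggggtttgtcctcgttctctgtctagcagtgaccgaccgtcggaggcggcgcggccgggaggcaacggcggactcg
Srsf7, chr17:80207256-80207555, minus strand: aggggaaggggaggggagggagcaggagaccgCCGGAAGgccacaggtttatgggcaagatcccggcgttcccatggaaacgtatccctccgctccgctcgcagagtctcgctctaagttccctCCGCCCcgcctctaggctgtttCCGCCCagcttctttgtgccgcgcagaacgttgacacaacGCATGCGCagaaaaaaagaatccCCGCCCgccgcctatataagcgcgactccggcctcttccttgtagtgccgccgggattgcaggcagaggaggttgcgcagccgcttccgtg
The window of Dhx8 held 1 ETS match, that of Ddx21 held 1 GC box, that of Hnrnpk held 2 CCAAT boxes and that of Srsf7 held 3 GC boxes, 1 ETS match and 1 NRF1 core. The ETS letters stood in 30.7% of the 140 members' promoters, in 8.86% of all 32851 promoters and in 16.5% of the 11199 promoters of genes with at least 100 UMIs in a large cell type. By family the share was 87.5% in SF3A and SF3B promoters, 42.9% in SRSF, 37.5% in DDX and DHX, 14.8% in hnRNP and 14.3% in RBM promoters. The GC box stood in 61.4% of the members' promoters and in 62.4% of those of the expressed genes, and the CCAAT box in 45.0% and 36.5%. The NRF1 core stood in 7.14% of the members' promoters against 5.17% of those of the expressed genes, and the TATA box in 12.1% against 6.93%. The motif shares are descriptions, genes with several starts count more than once, no motif holds another whole, and neighbouring matches can share bases at their ends. The median GC content was 61.0% in both the members' and the expressed genes' promoters and 52.7% in all promoters.

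Summed over all barcodes, whose mix of cell types differs between the libraries, the members took 8447 CPM in the control and 8397 CPM in the EMF_AuNPs library. Within cell types their total had a log2 ratio of -0.09 in microglia, -0.07 in oligodendrocytes, 0.10 in astrocytes and 0.01 in endothelial cells. In choroid plexus cells it was 4344 and 5813 CPM (0.42, 0.39 to 0.45), beside a median of 0.30 over all genes there. Counts of members are given in the 5 cell types with the most UMIs, microglia, oligodendrocytes, astrocytes, endothelial cells and choroid plexus cells, among the members with at least 100 UMIs over both libraries in that type. Of the 130 members, 108 passed this filter in at least 1 compared type, 68 in all 5 large types, and 22 in none. In astrocytes and choroid plexus cells the log2 ratio over all genes had a median of 0.17 and 0.30, against -0.05, 0.01 and 0.06 in microglia, oligodendrocytes and endothelial cells. Counts after centring on that median are therefore given as well where it shifts them. All cell types come from the same 2 libraries, so values in different types are not independent of each other.

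The summed SRSF level was above the control in the EMF_AuNPs library in each of the 5 types, and the summed DDX and DHX level was below the control in 4 of them. The summed SRSF level in microglia was 1255 CPM in the control and 1536 CPM in the EMF_AuNPs library, a log2 ratio of 0.29 (0.23 to 0.36). In oligodendrocytes it was 1003 and 1223 CPM (0.29, 0.24 to 0.33), and in endothelial cells 1170 and 1531 CPM (0.39, 0.33 to 0.44). In astrocytes it was 900 and 1357 CPM (0.59, 0.54 to 0.65), and in choroid plexus cells 558 and 952 CPM (0.77, 0.68 to 0.86). The last 2 sums alone passed 1.5-fold, and centring brings them to 0.42 and 0.47, below it. The summed DDX and DHX level was 3448 and 2822 CPM in microglia (-0.29, -0.33 to -0.24), 2705 and 2299 CPM in oligodendrocytes (-0.24, -0.27 to -0.20) and 3246 and 2858 CPM in endothelial cells (-0.18, -0.22 to -0.15). In astrocytes it was 2715 and 2573 CPM (-0.08, centred -0.25), and in choroid plexus cells 1378 and 1558 CPM (0.18, centred -0.12). No helicase sum passed 1.5-fold in either direction.

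**Figure D1:**
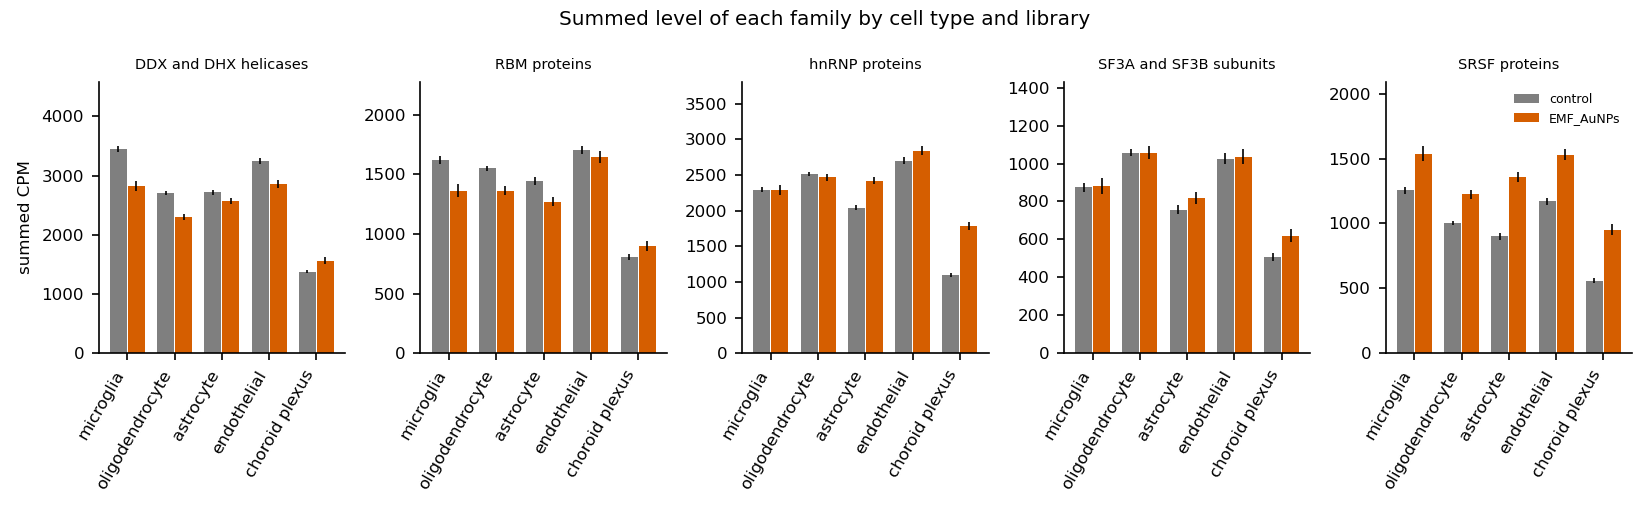
Summed CPM of each family (y axis) in the 5 cell types (x axis), with 1 bar per library and exact 95% Poisson intervals. The SRSF bar of the EMF_AuNPs library is above that of the control in all 5 types, while the DDX and DHX bar is below it in 4 and above it in choroid plexus cells, where centring turns the ratio from 0.18 to -0.12.

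In astrocytes the RBM sum had a lower ratio than the helicase sum. In choroid plexus cells the RBM ratio (0.16, 0.08 to 0.25) and the helicase ratio (0.18, 0.11 to 0.24) were close. The RBM sum was 1619 and 1363 CPM in microglia (-0.25), 1551 and 1362 CPM in oligodendrocytes (-0.19) and 1445 and 1272 CPM in astrocytes (-0.18, centred -0.36). It was 1703 and 1646 CPM in endothelial cells (-0.05, -0.10 to 0.00) and 804 and 901 CPM in choroid plexus cells (0.16, centred -0.14). The SF3A and SF3B sum was 876 and 880 CPM in microglia and 1058 CPM in both libraries in oligodendrocytes. The hnRNP sum was 2294 and 2286 CPM in microglia and 2511 and 2464 CPM in oligodendrocytes, but 1097 and 1782 CPM in choroid plexus cells (0.70, centred 0.40).

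Among single members in microglia, 18 of 98 were lower and 10 were higher, beside 13.2% lower and 6.79% higher among all 7826 genes that passed the same filter. In oligodendrocytes 15 of 101 were lower and 9 higher, with 8.36% and 7.51% of all genes. In endothelial cells 7 of 96 were lower and 11 higher (6.46% and 9.13% of all genes), and 11 and 7 after centring (8.57% and 7.14%). In astrocytes 12 of 94 were lower and 24 higher (7.21% and 17.2% of all genes), which turned to 22 and 14 after centring (12.2% and 9.03%). In choroid plexus cells 3 of 69 were lower and 22 higher (3.81% and 27.8% of all genes), and 10 and 16 after centring (11.1% and 11.8%). The split between lower and higher thus depended on the scaling in the last 3 types, and since the members were picked on this contrast nothing is read from the counts.

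The median log2 ratio of the SRSF members that passed was 0.42 in microglia, 0.41 in oligodendrocytes, 0.64 in astrocytes, 0.54 in endothelial cells and 0.67 in choroid plexus cells. None of them was lower in any of these types, and 2 of 10, 2 of 10, 6 of 10, 5 of 10 and 6 of 9 were higher. The shares of all genes past 1.5-fold in each type are those given above. For the DDX and DHX members the medians were -0.26, -0.19, -0.07, -0.19 and -0.07 in the same order. Of these helicases 11 of 38, 9 of 39, 9 of 36, 4 of 37 and 3 of 21 were lower, and 1, 1, 5, 1 and 3 were higher. After centring, the astrocyte count of helicases was 13 lower and 2 higher, the choroid plexus count 7 lower and 2 higher, and the SRSF counts there 4 and 4 higher.

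**Figure D2:**
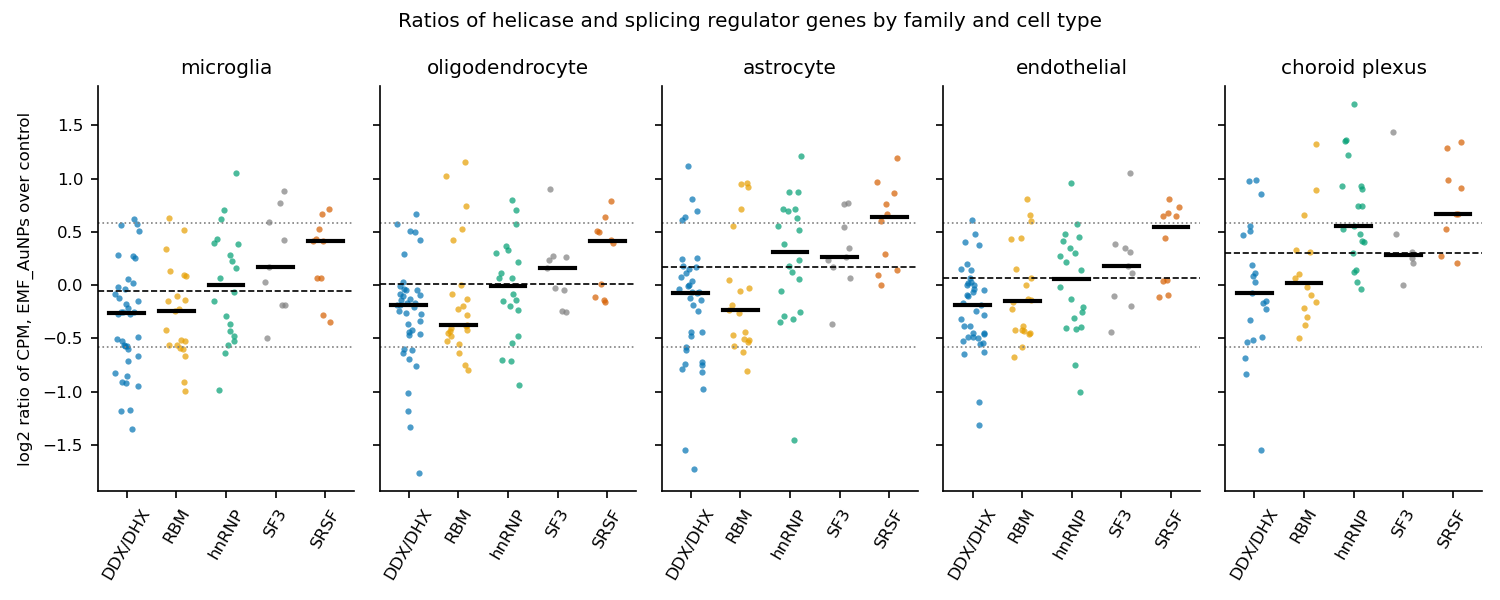
Log2 ratio of CPM, EMF_AuNPs over control (y axis), of each member with at least 100 UMIs, by family (x axis) and cell type (panels). Thick bars are family medians, the dashed line is the median of all genes and dotted lines mark 1.5-fold. The SRSF medians of 0.41 to 0.67 lie above the all-gene line in every panel and the DDX and DHX medians of -0.26 to -0.07 below it, which in choroid plexus cells turns with a minimum of 300 UMIs (0.53 over 8 helicases, all genes 0.21).

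Spliceosomal helicases held the member with the lowest ratio in microglia, oligodendrocytes and astrocytes. Dhx8, the DEAH-box helicase that releases the spliced mRNA, lies on chromosome 11 from 101732919 to 101767358 on the plus strand, and its longest coding transcript has 23 exons. In control microglia it stood at 47.9 CPM (42.5 to 53.8) and in EMF_AuNPs microglia at 18.2 CPM (12.4 to 25.7), a log2 ratio of -1.35 (-1.97 to -0.87). In oligodendrocytes it stood at 34.8 and 13.2 CPM (-1.33, -1.85 to -0.97), in astrocytes at 38.6 and 19.1 CPM (-0.97, -1.42 to -0.61) and in endothelial cells at 42.6 and 27.3 CPM (-0.63, -1.04 to -0.27). The control library was the higher one in each of these types, with Poisson intervals that did not overlap. In choroid plexus cells it had 54 and 7 UMIs, under the filter.

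Ddx23, the DEAD-box helicase that frees the 5′ splice site from U1, lies on chromosome 15 from 98645134 to 98662894 on the minus strand and has 17 exons. In oligodendrocytes 724 UMIs in the control (49.2 CPM, 45.7 to 52.9) stood against 51 UMIs in the EMF_AuNPs library (13.8 CPM, 10.3 to 18.1), a log2 ratio of -1.76 (-2.27 to -1.42). It stood at 25.5 and 10.8 CPM in microglia (-1.17, -2.01 to -0.55), at 18.8 and 5.0 CPM in astrocytes (-1.73, -2.73 to -1.18) and at 36.5 and 16.5 CPM in endothelial cells (-1.10, -1.64 to -0.68). The control value was above the EMF_AuNPs value in each type and the intervals did not overlap. In choroid plexus cells Ddx23 had 60 and 2 UMIs.

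Helicases of the spliceosome were listed by role, and the list holds Ddx23 and Dhx8, whose low ratios picked the group. Both count among the lower ones in microglia, oligodendrocytes, astrocytes and endothelial cells. Without centring, no other listed helicase was lower in endothelial cells. Of the 14 found under their listed symbols, 5 of 13 that passed were lower in microglia (median -0.53), 5 of 13 in oligodendrocytes (-0.42), 5 of 14 in astrocytes (-0.33), 2 of 13 in endothelial cells (-0.45) and 0 of 9 in choroid plexus cells (0.11). The list also names Ddx39a, which the files hold as Ddx39, so these counts and medians leave it out. Ddx39 was higher in microglia (0.62), oligodendrocytes (0.67) and astrocytes (0.81), with 0.02 in endothelial cells. Ddx17, on the list, was higher in choroid plexus cells (0.98). After centring, 7 of 14 were lower in astrocytes (-0.51), 4 of 13 in endothelial cells (-0.51) and 2 of 9 in choroid plexus cells (-0.19), where the median thus changed sign. The shares of all genes that were lower are those given above, 13.2%, 8.36%, 7.21%, 6.46% and 3.81% in the same order, or 12.2%, 8.57% and 11.1% after centring in the last 3 types. Ddx46, which acts with the U2 snRNP at the branch point, stood at 147 and 95.9 CPM in oligodendrocytes (-0.61) and 108 and 61.3 CPM in astrocytes (-0.81), lower in both. Its ratio was -0.51 in microglia, -0.45 in endothelial cells and -0.53 in choroid plexus cells, short of 1.5-fold, and it was lower in pericytes (-0.90) and smooth muscle cells (-1.12). Ddx42, a helicase found with SF3B, was lower in microglia (-0.60), oligodendrocytes (-0.64), astrocytes (-0.75) and pericytes (-1.02), of which the microglial call was lost after centring (-0.54). Ddx39b, which couples splicing to mRNA export, was higher in astrocytes (115 and 187 CPM, 0.70) and choroid plexus cells (0.85), with 0.58 in microglia and oligodendrocytes, just short of 1.5-fold, and 0.48 in endothelial cells. After centring it was 0.52 in astrocytes and 0.55 in choroid plexus cells, under 1.5-fold, and 0.63 in microglia, above it. Dhx15, which takes apart spent spliceosomes, stayed within 1.5-fold in all 5 types, from -0.17 in oligodendrocytes to 0.51 in choroid plexus cells. The spliceosomal helicases therefore did not share 1 direction.

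Ribosome biogenesis helicases, which act in the nucleolus, included the member with a low ratio in all 5 types. Ddx21, a nucleolar helicase of ribosomal RNA transcription and processing, lies on chromosome 10 from 62580251 to 62602281 on the minus strand, with 15 exons. In microglia its control level was 143 CPM (134 to 153) against 62.5 CPM (51.4 to 75.3) with EMF_AuNPs, a log2 ratio of -1.19 (-1.50 to -0.91). It was 80.5 and 34.9 CPM in oligodendrocytes (-1.18), 71.8 and 23.9 CPM in astrocytes (-1.55), 123 and 49.1 CPM in endothelial cells (-1.31) and 47.2 and 15.5 CPM in choroid plexus cells (-1.55). Ddx21 was thus below the control in every large type, by more than 1.5-fold with and without centring, and the intervals of the levels did not overlap. Ddx24, a nucleolar helicase of the large ribosomal subunit, was lower in microglia (268 and 169 CPM, -0.66), astrocytes (301 and 180 CPM, -0.74), endothelial cells (348 and 223 CPM, -0.64) and choroid plexus cells (220 and 137 CPM, -0.68). In oligodendrocytes its ratio was -0.47, and in smooth muscle and ependymal cells it was lower (-0.81 and -0.60, the latter -0.57 after centring and then under 1.5-fold). Of the list of 18 such helicases, 3 of 14 were lower in microglia, 1 of 15 in oligodendrocytes, 3 of 13 in astrocytes, 2 of 13 in endothelial cells and 3 of 9 in choroid plexus cells, so without centring most of the list did not pass 1.5-fold. Among all genes 13.2%, 8.36%, 7.21%, 6.46% and 3.81% were lower in the same order. After centring, 4 of 13 were lower in astrocytes and 5 of 9, the larger part, in choroid plexus cells (12.2% and 11.1% of all genes). Ddx56, also on the list, was higher in astrocytes (0.64) and endothelial cells (0.61), and centring brings both under 1.5-fold.

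Helicases of translation, decay and RNA sensing followed. Of the export, decay and translation helicases 3 of 7 were lower in microglia, 3 of 7 in oligodendrocytes and 1 of 6 in astrocytes, where 1 was also higher. Of the RNA sensing helicases, which detect viral RNA in the cytoplasm, 1 of 3, 2 of 2 and 1 of 2 were lower in these types and none in endothelial or choroid plexus cells. Among all genes 13.2%, 8.36% and 7.21% were lower in microglia, oligodendrocytes and astrocytes. The lower sensing helicases were Dhx36 and, in oligodendrocytes, Dhx29, and both are also on the export, decay and translation list. Ddx58 had -0.57 in microglia and -0.49 in endothelial cells, short of 1.5-fold. Dhx36, which unwinds G-quadruplexes, was lower in microglia (-0.91), oligodendrocytes (-0.60) and astrocytes (-0.61). Dhx57 was lower in microglia (-0.71) and oligodendrocytes (-1.02). Ddx5, a helicase and transcription cofactor, had the most UMIs of the helicases. It stood at 1363 and 1141 CPM in microglia (-0.26), 611 and 576 CPM in oligodendrocytes (-0.08), 857 and 963 CPM in astrocytes (0.17), 816 and 819 CPM in endothelial cells (0.00) and 326 and 479 CPM in choroid plexus cells (0.55), within 1.5-fold in all. In red blood cells, where it was the 1 member to pass the filter, its ratio was -0.57, beside -0.32 for all genes there.

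**Figure D3:**
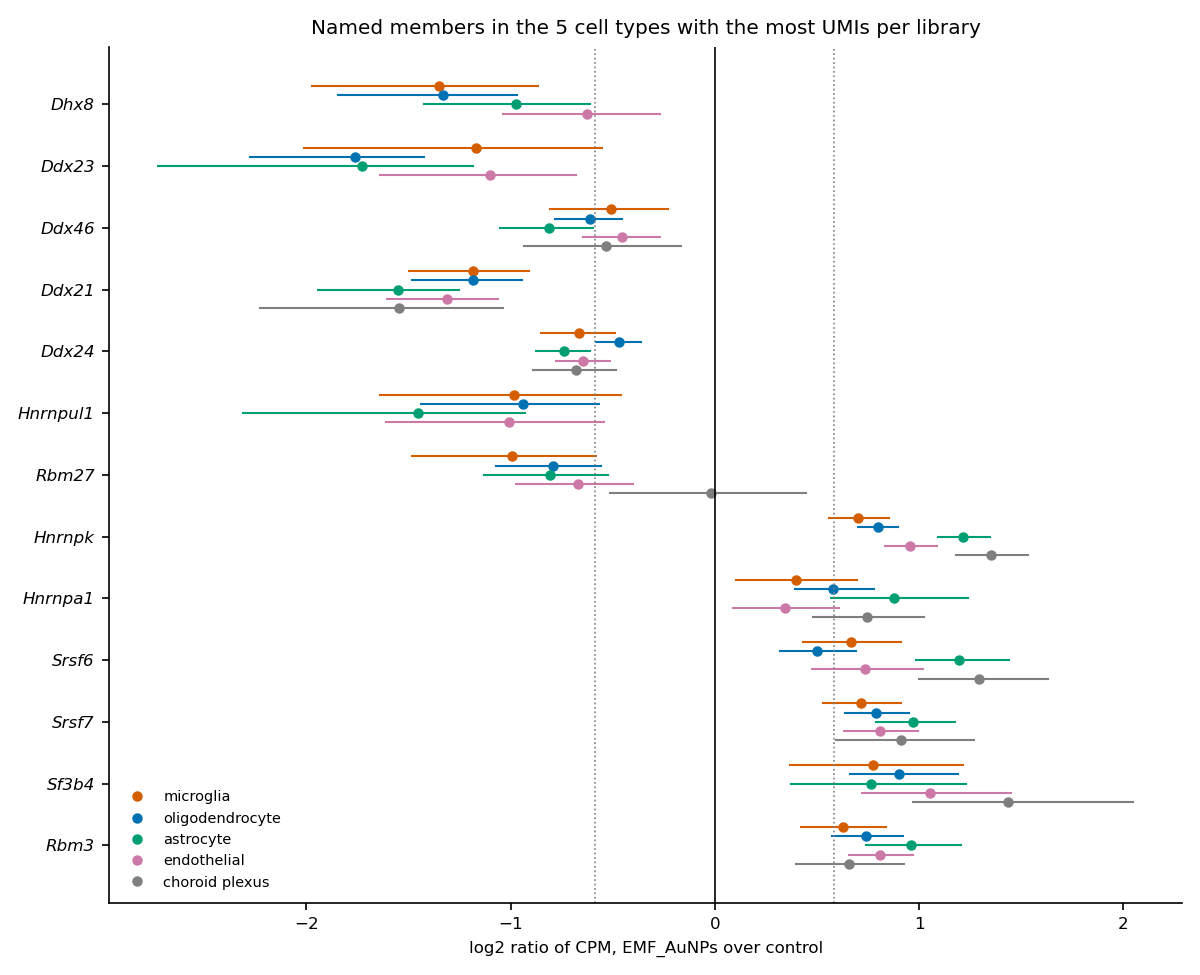
Log2 ratio of CPM, EMF_AuNPs over control (x axis), of 13 members (y axis) in the 5 cell types (colours), for members with at least 100 UMIs in the type. Points are ratios, lines are exact 95% counting intervals and dotted lines mark 1.5-fold. Dhx8, Ddx23 and Ddx21 lie between -1.76 and -0.63, and Hnrnpk, Srsf7, Sf3b4 and Rbm3 lie between 0.63 and 1.44, all without centring, which brings Rbm3 in choroid plexus cells to 0.36.

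No SR protein gene was lower in any of the 5 large types, where 3.81% (choroid plexus cells) to 13.2% (microglia) of all genes were lower. With so few SR genes per type, this is not read as a trait of the family. Srsf7, an SR protein with a zinc knuckle that also acts in mRNA export, lies on chromosome 17 from 80200080 to 80207307 on the minus strand, with 8 exons. Control microglia had 113 CPM (105 to 122) of it and EMF_AuNPs microglia 187 CPM (167 to 208), a log2 ratio of 0.72 (0.53 to 0.91). Its levels were 75.6 and 131 CPM in oligodendrocytes (0.79), 71.6 and 141 CPM in astrocytes (0.97), 95.1 and 167 CPM in endothelial cells (0.81) and 36 and 68.7 CPM in choroid plexus cells (0.91). The EMF_AuNPs library was the higher one in each, with intervals apart, and the ratio also passed 1.5-fold in pericytes (0.70) and smooth muscle cells (0.75). Srsf6 stood at 77.0 and 123 CPM in microglia (0.67), 48.8 and 113 CPM in astrocytes (1.20), 44.6 and 75.0 CPM in endothelial cells (0.74) and 35.4 and 88.1 CPM in choroid plexus cells (1.29). In oligodendrocytes its ratio was 0.50.

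Srsf2 and Srsf3, the SR genes with the most UMIs, were higher in part of the types. Srsf2 stood at 133 and 243 CPM in astrocytes (0.86), 179 and 288 CPM in endothelial cells (0.68) and 84.8 and 169 CPM in choroid plexus cells (0.99), with 0.53 in microglia and 0.43 in oligodendrocytes. Srsf3 was higher in astrocytes (0.67) and choroid plexus cells (0.67), with 0.43, 0.40 and 0.44 in microglia, oligodendrocytes and endothelial cells. After centring Srsf3 was 0.49 in astrocytes and 0.37 in choroid plexus cells, so both calls were lost. Not every SR gene took part. Srsf10 lay between 0.00 and 0.21 and Srsf11 between -0.16 and 0.27 in the 5 types. Srsf5, the SR gene whose control level was highest in microglia relative to other types, was 286 and 236 CPM there (-0.28) but 149 and 227 CPM in astrocytes (0.60, centred 0.43 and then under 1.5-fold). Srsf4 had a ratio of -0.34 in microglia and 0.14 in astrocytes.

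Of the hnRNP genes, 20 of 20 passed the filter in each of the 4 largest types, and they moved both ways. Hnrnpk, a KH-domain protein that binds C-rich RNA and DNA, lies on chromosome 13 from 58391142 to 58403343 on the minus strand. Control microglia had 191 CPM (180 to 202) of it and EMF_AuNPs microglia 311 CPM (285 to 338), a log2 ratio of 0.70 (0.56 to 0.85). Its levels were 187 and 326 CPM in oligodendrocytes (0.80), 150 and 349 CPM in astrocytes (1.22), 184 and 358 CPM in endothelial cells (0.96) and 110 and 281 CPM in choroid plexus cells (1.35). The ratio also passed 1.5-fold in pericytes (0.66), smooth muscle cells (1.12) and ependymal cells (1.01). Hnrnpk was therefore higher in all 8 types in which it passed the filter, with 281 to 358 CPM in the 5 large types of the EMF_AuNPs library against 110 to 191 CPM in the control.

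Hnrnpul1, an hnRNP U-like protein, went the other way. It stood at 33.6 and 16.5 CPM in microglia (-0.98), 27.4 and 13.8 CPM in oligodendrocytes (-0.94), 19.2 and 6.4 CPM in astrocytes (-1.45) and 28.4 and 13.6 CPM in endothelial cells (-1.01), lower in each with intervals apart. Hnrnpa2b1, which carries and packages RNA, was lower in oligodendrocytes (206 and 125 CPM, -0.72), endothelial cells (-0.75), pericytes (-0.87) and smooth muscle cells (-0.69), and its ratio was -0.53 in microglia, -0.29 in astrocytes and 0.03 in choroid plexus cells. Hnrnpu, a nuclear matrix protein, had 257 and 164 CPM in microglia (-0.64) and -0.54, -0.34 and -0.39 in oligodendrocytes, astrocytes and endothelial cells. In choroid plexus cells Hnrnpu had the opposite sign, with 100 and 133 CPM (0.40). Hnrnph1, which binds G-runs, was higher in choroid plexus cells (37.6 and 124 CPM, 1.70) and astrocytes (0.71), and in pericytes (0.69), and the astrocyte call was lost after centring (0.54). Hnrnpa1, of which processed copies exist elsewhere in the genome that could take reads, was higher in astrocytes (0.88), choroid plexus cells (0.74) and ependymal cells (0.81), with 0.40, 0.58 and 0.35 in microglia, oligodendrocytes and endothelial cells. Its choroid plexus call was lost after centring (0.44). Hnrnpdl, an hnRNP D-like protein, was at 0.74 in ependymal cells and between -0.02 and 0.53 in the 5 large types.

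Among SF3A and SF3B subunits, Sf3b4, which binds near the branch point, stood at 23.5 and 40.9 CPM in microglia (0.77), 25.3 and 48.1 CPM in oligodendrocytes (0.90) and 16.1 and 28.0 CPM in astrocytes (0.76). It was 22.5 and 47.7 CPM in endothelial cells (1.05) and 11.9 and 33.8 CPM in choroid plexus cells (1.44), so it was higher in all 5. Sf3a2 was higher in microglia (21 and 39.8 CPM, 0.89), with 0.23, 0.54 and 0.18 in oligodendrocytes, astrocytes and endothelial cells. Sf3b1, the branch point subunit mutated in some cancers, had 248 and 218 CPM in microglia (-0.19) and stayed within 1.5-fold in all 5 types. Sf3b2, its partner, had 458 and 387 CPM in oligodendrocytes (-0.24) and -0.49 in microglia. No SF3A or SF3B gene was lower in any of the 5 types, while Sf3b2 was lower in pericytes (-0.67) and smooth muscle cells (-0.63).

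RBM genes held both directions. Of the RBM splicing regulators listed by role, 1 of 11 was lower in microglia, and 1 was higher in each of oligodendrocytes (of 13), astrocytes (of 11), endothelial cells (of 10) and choroid plexus cells (of 7). Among all genes 13.2% were lower in microglia, and 7.51%, 17.2%, 9.13% and 27.8% were higher in the other types in the same order. The counts of this list lie near or below these shares, so nothing is read from them. Rbm3, a cold-inducible RNA-binding protein, stood at 102 and 158 CPM in microglia (0.63), 62.4 and 105 CPM in oligodendrocytes (0.74), 49.9 and 97.9 CPM in astrocytes (0.96), 128 and 225 CPM in endothelial cells (0.81) and 65.0 and 103 CPM in choroid plexus cells (0.66). It was also higher in pericytes (0.75) and smooth muscle cells (0.86), and after centring its choroid plexus ratio was 0.36, under 1.5-fold. Rbm7, part of the nuclear exosome targeting complex, was higher in oligodendrocytes (20.8 and 47.6 CPM, 1.16), astrocytes (0.71), endothelial cells (0.66) and choroid plexus cells (1.32), of which the astrocyte call was lost after centring (0.54). Rbm27, a zinc finger RNA-binding protein, was lower in microglia (56.4 and 27.8 CPM, -0.99), oligodendrocytes (-0.79), astrocytes (-0.81) and endothelial cells (-0.67), and was 28.7 and 28.2 CPM in choroid plexus cells (-0.02). Rbm28, a nucleolar protein, was lower in microglia (-0.60), oligodendrocytes (-0.75), astrocytes (-0.63) and ependymal cells (-0.72), and the microglial call was lost after centring (-0.55). Rbm39 and Rbm25, SR-related splicing coactivators with the most UMIs of the family, had ratios of -0.14 and -0.57 in microglia and -0.13 and -0.45 in oligodendrocytes. Rbm26 was lower in ependymal cells (-0.63), and its ratio was -0.42 in microglia and -0.44 in astrocytes.

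The members' ratios, which come from the contrast that picked the group, were also set beside gene structure. By the GENCODE M21 gene models the longest coding transcript of the SRSF genes had a median of 6 exons, that of RBM genes 6.5, of hnRNP genes 11, of SF3 genes 16 and of DDX and DHX genes 17. Among the members that passed, the log2 ratio ran against the exon count, with a Spearman rank correlation of -0.51 in microglia (97 members with a gene model), -0.56 in oligodendrocytes (100), -0.51 in astrocytes (93), -0.55 in endothelial cells (95) and -0.47 in choroid plexus cells (69). Over all genes the same correlation was -0.22, -0.22, -0.07, -0.22 and 0.08. The points share 2 libraries and the families share both structure and sequence, so these are descriptions across genes.

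Members with up to 10 exons had a median log2 ratio of 0.28 in microglia (32 members) and 0.27 in oligodendrocytes (36). Those with 11 to 20 exons had -0.23 (46) and -0.20 (44), and those with more than 20 exons had -0.51 (19) and -0.40 (20). Among all genes of the same 3 classes the medians were 0.02, -0.12 and -0.31 in microglia and 0.08, -0.05 and -0.21 in oligodendrocytes. No member with more than 20 exons was higher in microglia or oligodendrocytes, and 7 were lower in each. Of the members with up to 10 exons 7 were higher in each, and 2 were lower in microglia and 0 in oligodendrocytes. Among all genes with more than 20 exons, 244 of 1040 were lower and 25 higher in microglia, and 206 of 1240 and 15 in oligodendrocytes. Of all genes with up to 10 exons, 378 of 4410 and 512 of 5231 were higher in these types, and 420 and 303 were lower. In astrocytes 4 of 19 members with more than 20 exons were lower and 1 was higher, beside 140 lower and 131 higher among all 1106 genes of that class. The median log2 ratio was -0.36 in these members (centred -0.54) and 0.03 in all genes of the class (centred -0.14). In endothelial cells 2 of 20 members of this class were lower and 0 higher, beside 148 lower and 29 higher among all 1093 genes of it. In choroid plexus cells 1 of 12 was lower and 0 higher, beside 41 and 187 among all 710 genes. The ratio also ran against the span of the gene in the members, with a rank correlation of -0.44 in microglia and -0.54 in oligodendrocytes, against -0.27 and -0.23 over all genes. For transcript length it was -0.33 in the members and -0.31 over all genes in microglia.

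**Figure D4:**
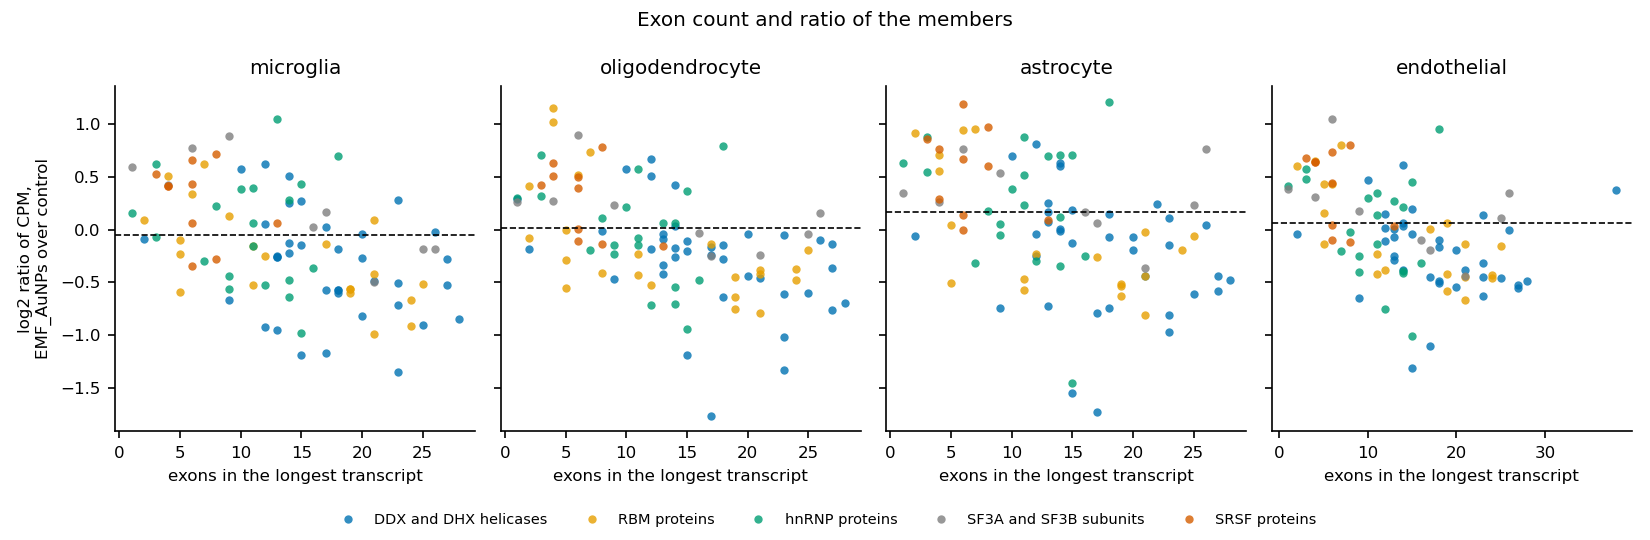
Number of exons in the longest transcript (x axis) and log2 ratio of CPM, EMF_AuNPs over control (y axis), of the members with at least 100 UMIs in 4 cell types (panels), coloured by family. The dashed line is the median of all genes. Members with more than 20 exons lie mostly below the line.

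Several measures of the libraries differed along with these ratios. Malat1, a nuclear-retained RNA, stood at 53833 and 39183 CPM in microglia, 69623 and 59077 CPM in oligodendrocytes, 130722 and 71771 CPM in astrocytes, 51998 and 44265 CPM in endothelial cells and 10277 and 6818 CPM in choroid plexus cells, below the control in all 5. The median UMIs per cell were 1557 and 1784 in microglia, 2313 and 3388 in oligodendrocytes and 1469 and 2364.5 in astrocytes. Haemoglobin transcripts, which these cells should lack, stood at 1219 and 8306 CPM in microglia. The 10 microglia markers, none of them at 0, summed to 1203 and 2388 CPM in oligodendrocytes and to 1420 and 2214 CPM in astrocytes. Each of these sums was larger in the EMF_AuNPs library. The 7 choroid plexus markers went the other way in cells of other types. They summed to 10767 and 6352 CPM in microglia, 7448 and 3905 CPM in oligodendrocytes, 10492 and 5071 CPM in astrocytes and 8975 and 4711 CPM in endothelial cells. In choroid plexus cells these markers took 414359 and 344085 CPM of that type's own UMIs. The part of each in the members' ratios was not tested.

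Other genes of RNA processing were listed for comparison. Of 49 other spliceosome proteins, 7 of 48 that passed were lower in microglia and 1 was higher (median -0.14), and 6 of 49 and 1 in oligodendrocytes (-0.09). The highest and lowest of these in microglia were Snrnp40 (0.60), a U5 protein, and the kinase Prpf4b (-0.99). Among all genes 13.2% were lower and 6.79% higher in microglia, and 8.36% and 7.51% in oligodendrocytes. Of 45 other splicing regulators, 7 of 42 were lower and 3 higher in microglia (-0.08), with the SR protein kinase Clk1 at -1.22 and the stabilising factor Elavl1 at 49.4 and 98.3 CPM (0.98). In astrocytes 4 of 43 were lower and 12 higher, and in choroid plexus cells 0 of 38 were lower and 19 higher, beside 7.21% lower and 17.2% higher of all genes in astrocytes and 3.81% and 27.8% in choroid plexus cells. After centring the counts were 7 and 9 in astrocytes (all genes 12.2% and 9.03%) and 5 and 12 in choroid plexus cells (11.1% and 11.8%).

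The counts of the next lists stand beside 13.2% lower and 6.79% higher among all genes in microglia. Of 15 other RNA helicases, 3 of 12 were lower and 2 higher in microglia, from Ascc3 (-1.06), a helicase of stalled ribosomes, to the translation initiation helicase Eif4a1 (206 and 400 CPM, 0.96). Of 12 genes of nonsense-mediated decay, 2 of 10 were lower in microglia, with Smg6 at -1.08 and Magoh at 0.34, and none was higher in microglia, oligodendrocytes, astrocytes or endothelial cells. Among all genes 7.51% were higher in oligodendrocytes, 17.2% in astrocytes and 9.13% in endothelial cells. Of 5 nuclear-retained RNAs none was lower and 2 were higher in microglia, where Malat1 was at -0.46 and Meg3 at 1.05. Of 16 dissociation and immediate early genes that passed there, 3 were lower and 3 higher, from Klf4 (474 and 203 CPM, -1.22) to Socs3 (125 and 226 CPM, 0.85), so that list had no common direction.

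The levels across cell types do not use the contrast that picked the group. Most members had measured levels that differed little between types: of the 96 members with at least 20 CPM in their highest compared type of the control, 80 had a level there under 2 times the median of the other types, and the median of this fold was 1.61. Free RNA shared by all cells of a library lowers such folds, and its part was not tested. In 16 members the fold was 2 or more, and 14 of these had the same highest type in the EMF_AuNPs library, against 47 of all 96. The 3 members with a fold of 5 or more were Rbm24, Rbm47 and Ddx58. Rbm24, a splicing regulator of muscle, stood at 184 CPM in control smooth muscle cells (88 UMIs, a fold of 130) and at 210 CPM in those of the EMF_AuNPs library. It was next highest in ependymal cells (61.1 and 56.2 CPM) and at most 9.0 CPM in the other compared types of either library.

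Rbm47, a cofactor of C-to-U RNA editing, stood at 77.5 CPM in choroid plexus cells of the control and 145 CPM in those of the EMF_AuNPs library, and at 24.9 and 27.3 CPM in microglia. In oligodendrocytes it was 1.0 and 1.1 CPM. Its fold over the median of the other types was 48.7 and 74.1, and its choroid plexus ratio was 0.90. Both libraries thus gave the same order of types for Rbm24 and Rbm47 at the top.

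Ddx58, which encodes the RNA sensor RIG-I, stood at 51.8 CPM in control and 36.6 CPM in EMF_AuNPs endothelial cells, against 17.4 and 11.4 CPM in microglia and 2.5 and 2.7 CPM in oligodendrocytes. Ddx26b, an Integrator-like subunit gene, stood at 44.2 and 65.9 CPM in microglia and at 2.4 and 3.3 CPM in choroid plexus cells. Hnrnpll, known for splicing of Ptprc in lymphocytes, stood at 44.3 and 56.2 CPM in ependymal cells, and in choroid plexus cells at 14.6 and 39.3 CPM, a ratio of 1.37. Sf3b2 stood at 783 and 581 CPM in ependymal cells, next to 458 and 387 CPM in oligodendrocytes. Hnrnpf was also highest in ependymal cells, at 278 and 412 CPM, and its ratio was 0.62 in microglia and 0.71 in oligodendrocytes, higher in both. Srsf4 and Sf3a2 had folds of 1.88 and 1.80 in the control, and the highest type of Srsf4, smooth muscle in the control, was pericytes in the EMF_AuNPs library.

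**Figure D5:**
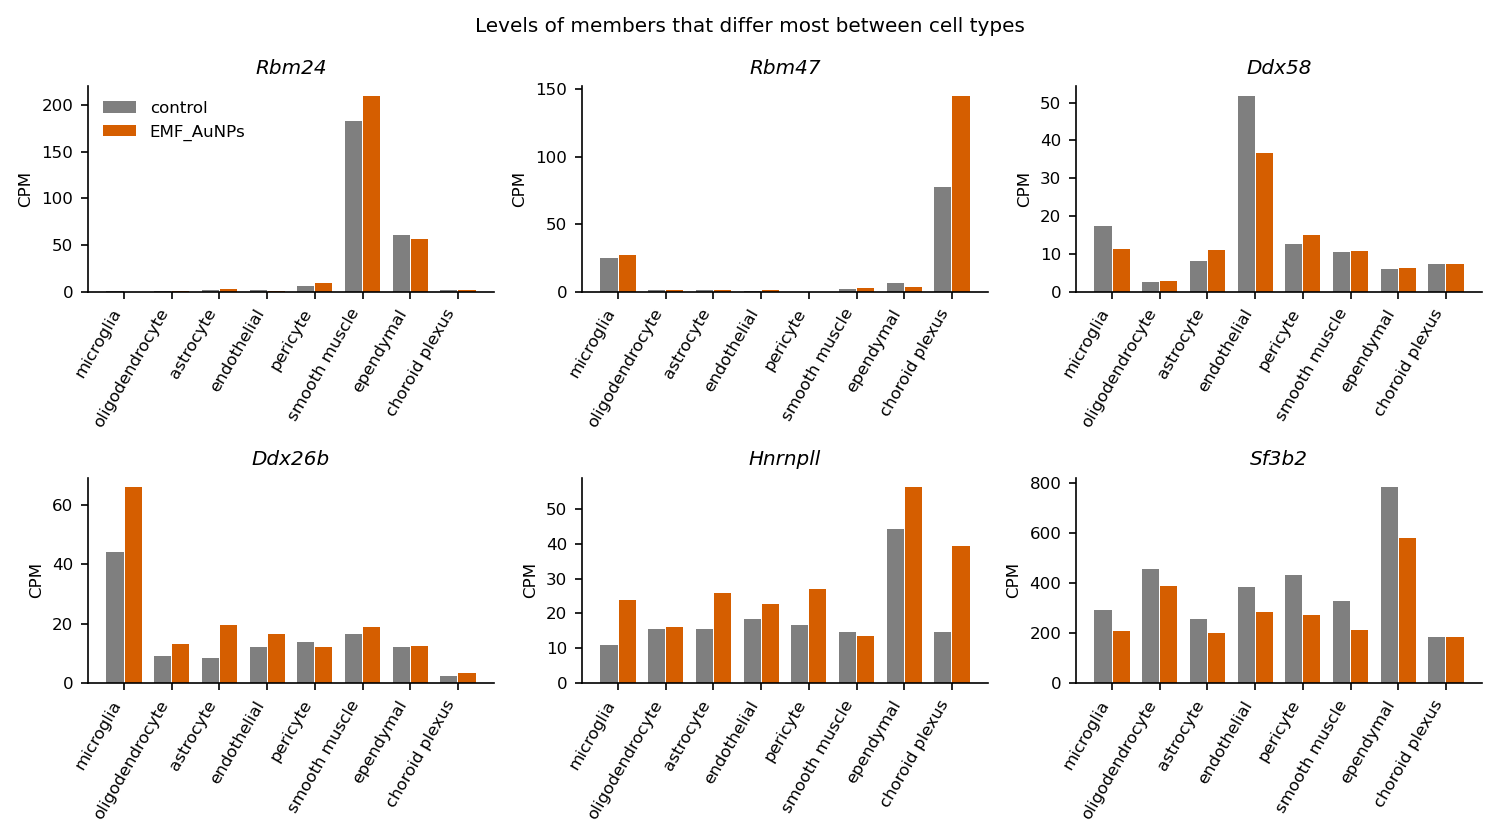
CPM (y axis, from 0) of 6 members in 8 cell types (x axis), with 1 bar per library. Rbm24 is highest in smooth muscle cells (184 and 210 CPM), Rbm47 in choroid plexus cells (77.5 and 145 CPM), Ddx58 in endothelial cells, Ddx26b in microglia, and Hnrnpll and Sf3b2 in ependymal cells, in both libraries.

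Some genes could share reads with neighbours. Of the 129 members found in the gene models (Ddx26b was not), 40 overlap an exon of a gene on the opposite strand and 14 one on the same strand. Hnrnpk overlaps Rmi1, Sf3a2 overlaps Plekhj1, Sf3b4 overlaps Gm17690 and Rbm3 overlaps Rbm3os on the opposite strand, and Rbm27 overlaps Gm22697 and Hnrnpul2 overlaps AC129217.1 on the same strand. Whether the counting used strand is not given in the sources used here, so reads of these pairs might not be told apart. Dhx8, Ddx23, Ddx21, Srsf6 and Srsf7 overlap no exon of another gene.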

How the data were processed

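The authors deposited whole-number UMI counts per gene and barcode, not normalised, for which the submitters' processing notes name Cell Ranger 3.0.2, STAR and the mm10 build. No column was left unmapped. A barcode was kept from 500 UMIs and 250 genes. A marker counted as enriched in a cell above 2 times the share expected from its mean library share, and a cell was given the type with the largest share of enriched markers, with at least 4 of them and a runner-up at no more than 50% of that share. Of the 144 markers, 138 are in the files. Barcodes that passed the gates of 2 types (2682 control, 913 EMF_AuNPs, the only treatment of doublets) were left out. UMIs were summed per library and type. CPM intervals are exact Poisson intervals and ratio intervals exact conditional binomial intervals at 95%, with nothing added. The members and lists were chosen with earlier results of these data known. Named are Ddx23 and Dhx8, in each type the 3 highest and 3 lowest ratios among members with at least 100 UMIs and 20 CPM, per family the 2 members with the most UMIs and the 2 with the highest fold between types in the control, and the extremes of each other list in microglia. Ddx39, Ddx17, Ddx39b, Dhx15, Dhx36, Dhx57, Srsf10 and Srsf11 were named after their values were seen, and so were the exon counts and motifs. The script was tested on simulated data. Python 3.11.15, numpy 2.4.6, scipy 1.17.1 and pandas 2.3.3 were used. Gene models are GENCODE M21 and promoters RefSeq, both GRCm38. Protein sequences were not used here.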

Additional observations from a re-analysis of the deposited data

Results flagged for a closer look

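Hnrnpul2, an hnRNP U-like gene, had opposite ratios in 2 cell types after centring on the median of all genes. Its centred log2 ratio was 0.63 in choroid plexus cells (45.3 CPM in the control and 86.9 CPM in the EMF_AuNPs library) and -0.71 in oligodendrocytes (120 and 73.2 CPM). With 1 library per group this difference was not tested.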

How the results depend on the processing

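Of the 90 counts of lower and higher members recomputed under other settings, 62 stayed within 1.5 times the reported count. No paired analysis was possible because each group has 1 library. With 10 CPM added, 8 of 101 members were lower in oligodendrocytes (3.36% of all genes). Higher were 15 of 94 in astrocytes and 7 of 96 in endothelial cells (9.19% and 4.39% of all genes). After centring, astrocytes had 22 lower and 14 higher, endothelial cells 11 and 7, and choroid plexus cells 10 lower, beside the centred shares of all genes given above. Thinning cells to 1000 UMIs leaves fewer genes over 100 UMIs. Then 6 of 68 members were higher in microglia, 14 of 62 in astrocytes and 1 of 4 in choroid plexus cells, where 1 was lower. Of all genes 7.46%, 16.4% and 13.6% were higher in the same order, and 6.53% were lower in choroid plexus cells. With a minimum of 50 UMIs, 7 of 90 were lower in choroid plexus cells (4.23% of all genes). With a minimum of 300 UMIs, which leaves fewer genes, microglia had 9 of 56 lower and 6 higher (12.4% and 5.58% of all genes). Astrocytes then had 15 of 57 higher (14.7%), endothelial cells 7 of 69 higher (6.43%) and choroid plexus cells 1 of 41 lower (4.25%). With a 2-fold limit in place of 1.5-fold, the lower and higher counts were 3 and 1 of 98 in microglia (2.26% and 1.29% of all genes). They were 4 and 2 of 101 in oligodendrocytes (1.56% and 1.11%) and 3 and 3 of 94 in astrocytes (1.54% and 3.27%). In endothelial cells they were 3 and 1 of 96 (0.92% and 1.32%), and in choroid plexus cells 1 and 8 of 69 (0.69% and 7.68%). The log2 ratio of Hnrnpdl in ependymal cells, 0.74, was -0.086 after thinning, and the cause was not tested. Thinning moved 48 more of the 226 single ratios checked beyond their counting intervals, centring moved 31 and adding 10 CPM moved 5. The helicase median in choroid plexus cells, -0.07, was 0.03 with a minimum of 50 UMIs, 0.53 with 300 UMIs (8 genes) and 0.19 after thinning (2 genes). In astrocytes it was -0.44 after thinning. The SRSF count of lower members was 0 under every setting in each of the 5 types, except that none passed in thinned choroid plexus cells. With so few SRSF genes per type, nothing is read from this count. The stricter gate of 6 markers leaves no red blood cells, so it gives no value there. Protein features were planned and not run. The depth of the smaller library limits the members with under 100 UMIs, and a difference within the counting intervals was not detectable.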
